A study of Saccharomyces cerevisiae with 10 samples.

Results

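The genes described here encode the proteins of the large subunit of the cytosolic ribosome of budding yeast, Saccharomyces cerevisiae. Members were the rows whose standard symbol is RPL, a number and, for duplicated genes, A or B. There were 76 among 6292 open reading frames. Of these, 66 belong to 33 families with copies A and B, and 10 are single-copy genes. Wild-type diploid cells were first grown in the yeast form in SHAD liquid, which supplies plenty of glucose and ammonium. They were then transferred to SLAD agar, which holds little ammonium and on which they grow as filaments. On each of 10 arrays, RNA of filamentous-form cells from 1 hour, from hour 1 to hour 10, was set beside RNA of yeast-form cells. Values are log2 ratios, written as filamentous over yeast form. That direction is likely but not stated. It rests on the channel order of the labels and on nitrogen genes such as the ammonium permease MEP2, whose mean log2 ratio was 1.15 ± 0.45 (SD over hours, n = 10). Each array was centred on its median, so 0 means the same ratio as the median gene.

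The large subunit joins amino acids in its peptidyl transferase centre and releases the growing chain through an exit tunnel lined by RNA and proteins. Most yeast ribosomal protein genes survive as a pair of copies from an ancient duplication of the genome, often with near-identical products. Their transcription, driven by Rap1, Fhl1, Ifh1 and Sfp1, is known to follow nutrient supply through the TOR and protein kinase A pathways.

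No hour had a second array, and the sources used here give neither the strain background nor whether 1 yeast-form extract served all arrays. P-values therefore measure the scatter of single arrays, which may be technical. The ratios hold no level of expression, so the labelled cells cannot be checked by marker genes. Between 5802 and 6063 rows per array had a value. The arrays of hours 1 and 2 had 5960 and 6063 values and deposited medians of 0.36 and 0.31, within the range of the other arrays for both measures. Of the members, 74 had all 10 values and were tested. RPL43A and RPL32 had 7 values each and were not tested. RPL43A was negative on all 7 arrays, at -1.29 ± 0.68 (SD, n = 7). RPL32 was at -0.18 ± 0.75 (SD, n = 7), with a lowest value of -1.70 at hour 8. It was above 0 on 5 of its 7 arrays, with a median of 0.17.

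The first question was how the members stood over the 10 hours as a whole. Relative to the array median most members were below 0, and a smaller set stood far below the rest. The median of the 74 tested means was -0.31, with an interquartile range from -0.81 to 0.01, against a median of 0.08 over all 5775 tested genes. On the deposited scale, without centring, the members' median was -0.01, against 0.37 over all genes. At an adjusted p under 0.05 in limma, 34 members were lower in filamentous-form cells and 6 were higher. Of all genes tested, 22.4% were lower and 22.6% higher. At least a 2-fold difference was reached by 16 of the lower members and by 0 of the higher ones, against 10.3% and 8.55% of all genes. On the centred scale 30 members were negative on every array that measured them, and 0 were positive on every array. These counts were not made over all genes, so how unusual they are is not known. On the deposited scale 26 members were lower and 16 higher, against 15.3% and 38.8% of all genes, since centring moved array medians by 0.30 on average. With quantile normalization, which keeps that scale, 17 members were higher, against 39.4% of all genes. The members' means had an SD of 0.77 between genes, against 0.84 for all tested genes.

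**Figure D1:**
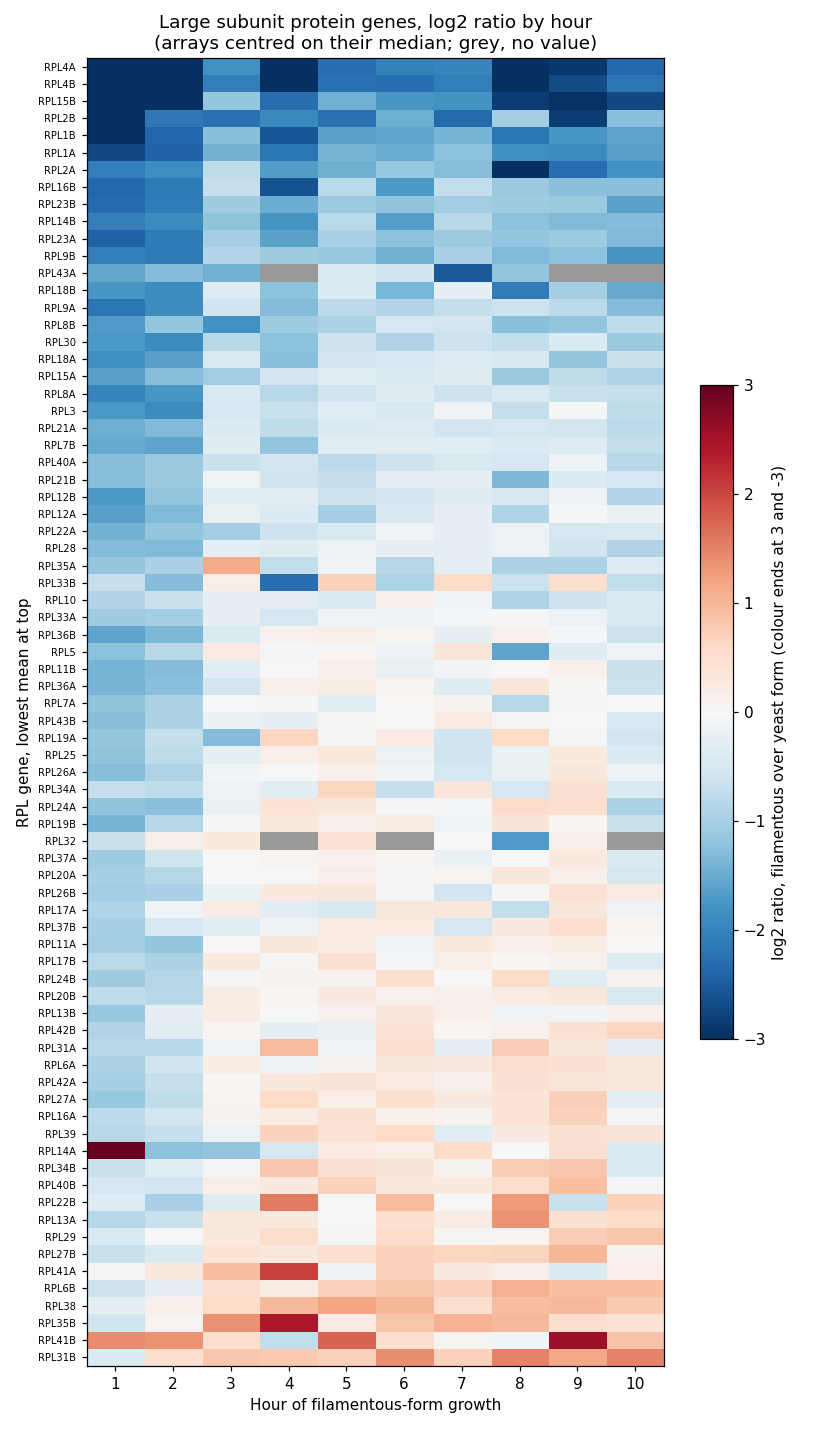
Log2 ratio of filamentous over yeast form for 76 large subunit protein genes (rows, lowest mean at the top) at hours 1 to 10 (columns), with blue below 0, red above 0, colours ending at 3 and -3, and grey for no value. The columns of hours 1 and 2 are bluer than the later ones in most rows, and RPL4A and RPL4B at the top are dark blue throughout.

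Both copies of RPL4, RPL1 and RPL2 were among the 7 members with the lowest means. RPL4 lines the exit tunnel. RPL4A had log2 ratios from -3.86 to -1.81 at hours 3 to 10 (median -2.31), against -3.82 and -3.02 at hours 1 and 2. Its mean over all hours was -2.76 ± 0.79 (SD, n = 10), a 6.77-fold difference (limma adjusted p = 8.9e-06). RPL4B had almost the same mean, -2.75 ± 0.68. For both copies the 2 sets of hours overlapped, and hours 4 and 8 were as low as hours 1 and 2.

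RPL1 forms the mobile stalk near the site where spent tRNA leaves. RPL1A was between -2.20 and -1.22 at hours 3 to 10 (median -1.55), against -2.71 and -2.44 at hours 1 and 2. Its mean was -1.82 ± 0.49 (limma adjusted p = 2.7e-06). RPL1B averaged -1.93 ± 0.58. RPL2 sits close to the peptidyl transferase centre. RPL2B averaged -2.06 ± 0.66 and RPL2A -1.78 ± 0.75, with a lowest RPL2A value of -3.48 at hour 8. RPL15B, 1 of the 2 copies of a core protein of the subunit, was at -2.31 ± 0.73, a 4.97-fold difference (limma adjusted p = 4.5e-06).

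At the other end, 6 members were higher over all hours. RPL31, near the tunnel exit, was represented by its copy RPL31B. This gene had log2 ratios from 0.68 to 1.50 at hours 3 to 10 (median 0.99), against -0.40 and 0.48 at hours 1 and 2. Its mean was 0.86 ± 0.57 (SD, n = 10, limma adjusted p = 0.00029). RPL38, a small single-copy protein, averaged 0.68 ± 0.45, RPL35B, another protein of the tunnel exit, 0.72 ± 0.82, and RPL6B 0.49 ± 0.56. All 4 had their lowest value at hour 1. RPL41B, 1 of the 2 genes for the shortest protein of the subunit, averaged 0.82 ± 0.98 with an adjusted p of 0.037 in limma, and RPL27B averaged 0.32 ± 0.52 (adjusted p = 0.033). The call of RPL41B was lost without hour 1, 2, 3, 5, 6 or 9, with adjusted p-values from 0.0501 to 0.082. That of RPL27B was lost without hour 4, 5, 6, 7, 8 or 9, with adjusted p-values from 0.0502 to 0.092. RPL27B also lost its call in a fit without terms for hour (limma adjusted p = 0.15). With odd hours alone all 6 lost their call, and with even hours alone RPL27B, RPL35B and RPL41B did.

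The tested single-copy members had means from -1.01 to 0.68, and the lowest of them ranked 17 from the bottom among all 76 members. This was RPL30, which is known to regulate the splicing of its own transcript. It averaged -1.01 ± 0.48, a 2.02-fold difference (limma adjusted p = 6.3e-05). RPL3, at the peptidyl transferase centre, was at -0.72 ± 0.62 and RPL28, the protein altered in cycloheximide-resistant mutants, at -0.56 ± 0.46, with limma adjusted p-values of 0.0012 and 0.0014. RPL3, RPL28 and RPL30 were negative on all 10 arrays. RPL10, which joins the subunit late in its assembly, was at -0.44 ± 0.35 (adjusted p = 0.012). On the deposited scale RPL28 (adjusted p = 0.073) and RPL10 (adjusted p = 0.31) lost their call in limma. Both also lost it with quantile normalization (limma adjusted p = 0.051 and 0.32). With odd hours alone RPL3, RPL28 and RPL10 lost their call (limma adjusted p = 0.067, 0.071 and 0.10). With even hours alone RPL10 did (limma adjusted p = 0.16). RPL5, which binds the smallest ribosomal RNA, had a mean of -0.36 ± 0.65 and RPL25, a docking site at the tunnel exit, -0.29 ± 0.48. RPL39, a small protein in the tunnel wall, had a mean of 0.08 ± 0.54 and RPL29, which cells can live without, 0.25 ± 0.40. None of these last 4 passed, with limma adjusted p-values from 0.10 to 0.67, but RPL29 passed on the deposited scale (adjusted p = 0.0064) and both RPL29 and RPL39 passed with quantile normalization (adjusted p = 0.0036 and 0.039).

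The second comparison set hours 3 to 10 against hours 1 and 2. The ratios of nearly all members were less negative, or more positive, at hours 3 to 10. The median member ratio of an array lay between -0.44 and -0.03 at hours 3 to 10, against -1.20 at hour 1 and -0.98 at hour 2. The number of members below 0 was between 38, at hour 9, and 56, at hour 10, in the later set, against 74 and 70 of 76 at hours 1 and 2. The median member at hour 10, at -0.44, was the lowest of the later hours. On the deposited scale the medians were between -0.16 and 0.24 at hours 3 to 10, against -0.84 and -0.67 at hours 1 and 2.

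**Figure D2:**
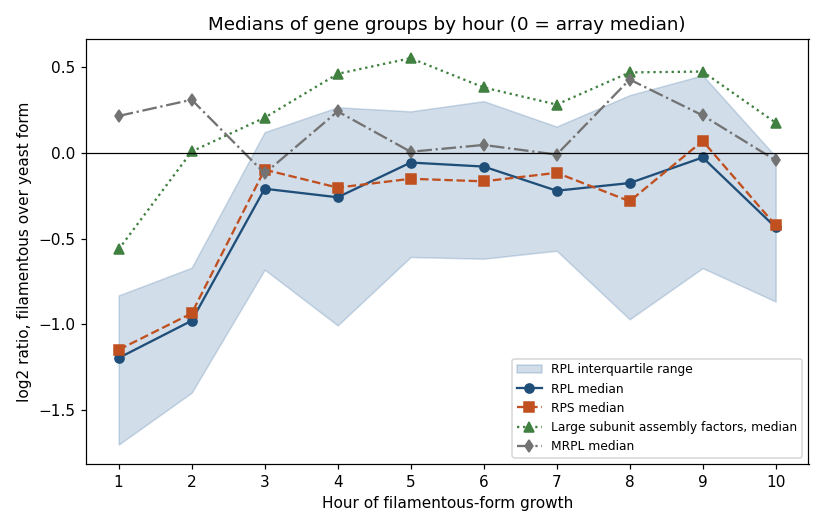
Median log2 ratio by hour for large subunit (RPL, line with the interquartile range shaded), small subunit (RPS) and mitochondrial large subunit (MRPL) protein genes and for large subunit assembly factors, with 0 as the array median. RPL and RPS medians lie closer to 0 from hour 3 than at hours 1 and 2. The assembly factor median is lowest at hour 1, at -0.56. The MRPL median is above 0 at all hours but 3, 7 and 10.

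Of the 74 tested members, 72 had a higher mean ratio at hours 3 to 10 than at hours 1 and 2. Among all 5773 genes, 2990 did. The median difference of the members was 0.94, with an interquartile range from 0.79 to 1.08, against a median of 0.02 over 5773 genes. In 52 members every value of hours 3 to 10 lay above both values of hours 1 and 2, and in 0 members every later value lay below. The same pattern held for 7.43% of all genes tested, and the opposite one for 4.69%.

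No single member passed the test of this difference, in which 2 arrays stood against 8. In limma 0 of 74 members and 0% of all genes had an adjusted p under 0.05. The smallest adjusted p was 0.16 among members and also among all genes. At an unadjusted p under 0.05, 53 members were higher and 0 lower at hours 3 to 10, against 7.29% and 5.06% of all genes. The standard error of a member's difference ran from 0.24 to 0.85. The comparison was also made within odd and within even hours, a split that the labels do not name as a batch. Each of these splits holds 1 early array, hour 1 or hour 2, which all members share. Among odd hours alone the median difference was 1.13 and 72 members had a positive one. Among even hours alone the median was 0.77 and 71 members had a positive one. These counts were not made over all genes.

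**Figure D3:**
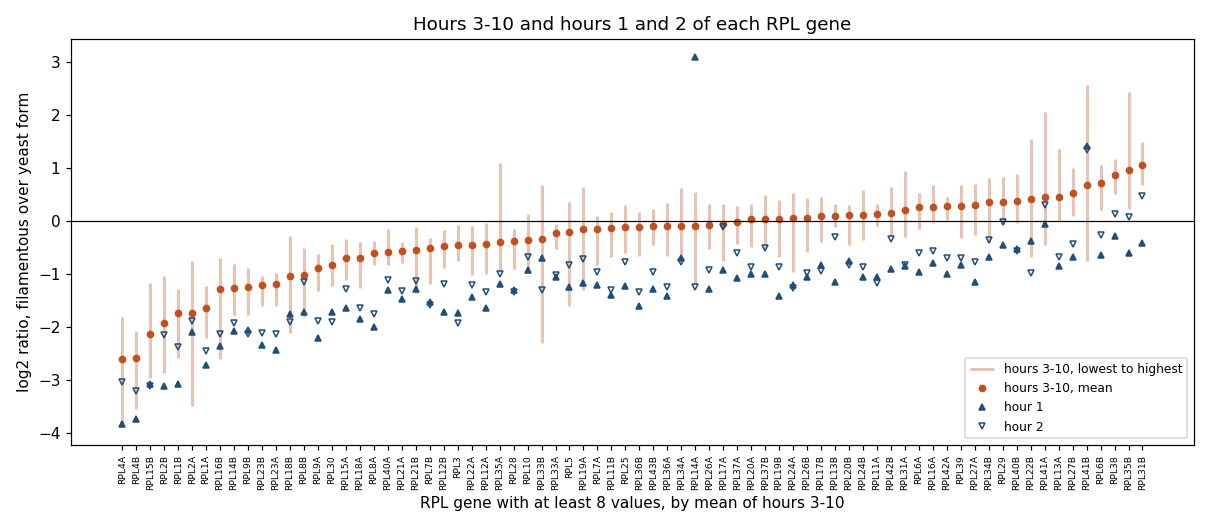
Log2 ratios of 74 large subunit protein genes, with the mean (orange point) and lowest to highest value (orange bar) of hours 3 to 10 beside hour 1 (filled triangle) and hour 2 (open triangle). Both triangles lie below the whole bar for 52 genes, and the hour 1 value of RPL14A stands apart at 3.10.

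The 4 members with the largest difference are given as values with no call. RPL3 was between -0.75 and -0.06 at hours 3 to 10 (median -0.49), against -1.73 and -1.91 at hours 1 and 2. The difference was 1.37 with a standard error of 0.27 (limma adjusted p = 0.16). RPL36B was between -0.65 and 0.18 at hours 3 to 10, against -1.59 and -1.34 at hours 1 and 2, a difference of 1.36. RPL24A, of a protein at the bridge between the subunits, was between -0.95 and 0.54, against -1.20 and -1.26, a difference of 1.29. RPL8A was between -0.83 and -0.37, against -1.99 and -1.75, a difference of 1.29. In all 4 genes the later values lay above both early ones.

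The 4 members with the smallest or negative differences were RPL14A, RPL41B, RPL2A and RPL41A. RPL14A had a difference of -1.01, which rested on hour 1. Its log2 ratio was between -1.18 and 0.55 at hours 3 to 10, against 3.10 at hour 1 and -1.24 at hour 2. Without hour 1 its difference was 1.16. RPL41B had values from -0.74 to 2.58 at hours 3 to 10, against 1.42 and 1.35 at hours 1 and 2, with a difference of -0.70. RPL2A and RPL41A differed by 0.24 and 0.32. None of these 4 passed, with limma adjusted p-values from 0.73 to 0.93.

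Set against the yeast form separately, 28 members were lower and 7 higher at hours 3 to 10 in limma, against 21.0% and 19.9% of all genes. At hours 1 and 2, 48 members were lower and 0 higher, against 11.5% and 7.12% of all genes. The error for both sets came from the scatter of all 10 arrays, most of them later ones. Of the 48, 28 were lower at hours 3 to 10 as well, 20 did not pass there, and 0 were higher, all on the centred scale. This split was not made over all genes. Passing in 1 set of hours alone is not a test of the difference between the sets, which no member passed. On the deposited scale 19 members were lower and 25 higher at hours 3 to 10, against 14.5% and 34.9% of all genes, so the share of higher members was close to that of the table. At hours 1 and 2, 33 members were lower and 0 higher on that scale, against 6.77% and 12.6% of all genes. RPL11A, of a protein that binds the smallest ribosomal RNA with RPL5, was 1 of the 20. It averaged 0.14 ± 0.16 at hours 3 to 10 (SD, n = 8), against -1.05 and -1.17 at hours 1 and 2. Its difference between the sets did not pass (limma adjusted p = 0.16).

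The third question was whether the 2 copies of a family moved alike. The ratio of copy A minus that of copy B was taken on each array, where centring cancels. All pairs of the table named in this way were tested together, 57 in all, of which 32 were RPL pairs. In limma 12 RPL pairs differed, 6 with copy A and 6 with copy B on the higher side. Of all 57 pairs 21, or 36.8%, differed, and 12 of these 21 were RPL pairs. The RPL share was close to that of the table, but RPL pairs made up 32 of the 57. An exact sign permutation test of the differences over hours, adjusted over the 57 pairs, called 11 RPL pairs. The median absolute difference between copies was 0.26, against 0.66 between members of different families. It was 0.28 over the 25 other tested pairs of the table. On the centred scale the means of both copies lay on the same side of 0 in 26 of 33 families. On that scale 54 of the 74 tested members had a mean below 0. The count of families depends on where 0 lies and was not made for the other pairs. Near-identical copies can share signal on an array, and how far each spot tells its copy from the other is not known here.

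**Figure D4:**
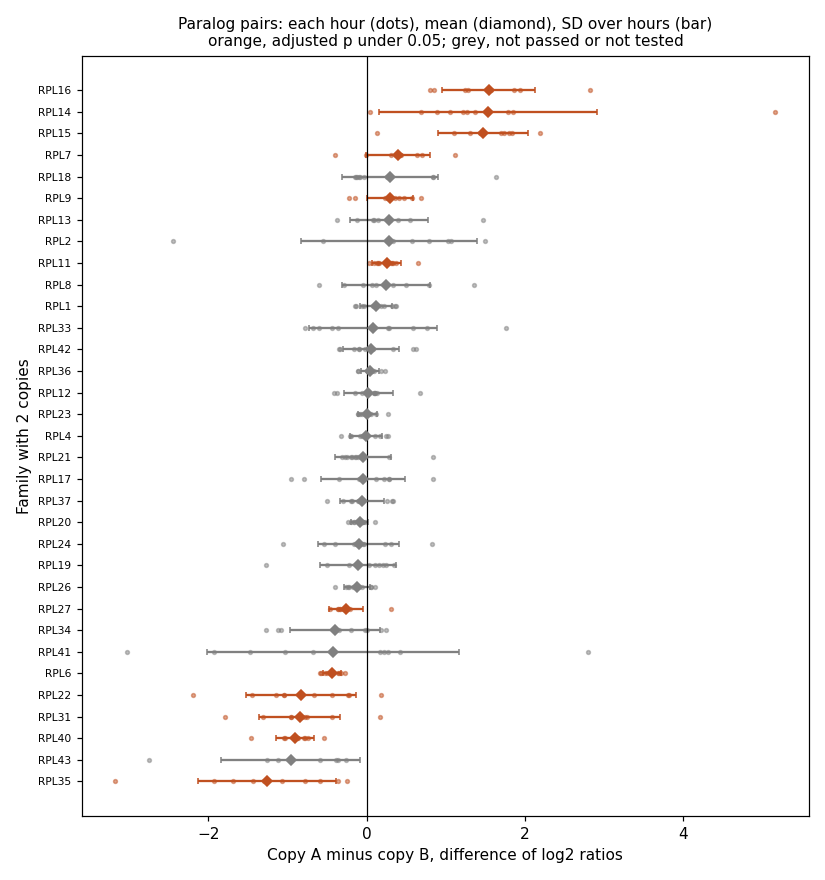
Difference of log2 ratios, copy A minus copy B, for 33 families with 2 copies, with each hour as a dot, the mean as a diamond and the SD over hours as a bar. The 12 families that differed are orange. RPL16, RPL14 and RPL15 lie farthest to the right and RPL35 farthest to the left.

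Over all 10 hours the widest gaps were found in RPL16, RPL14 and RPL15, with copy A on the higher side in each. RPL16A was between -0.03 and 0.69 at hours 3 to 10, against -0.79 and -0.55 at hours 1 and 2. RPL16B was between -2.60 and -0.69 at hours 3 to 10, against -2.35 and -2.13 at hours 1 and 2. Copy A was above copy B on all 10 arrays, by 1.54 ± 0.59 (SD, n = 10), a 2.91-fold difference (limma adjusted p = 0.00016). RPL15A exceeded RPL15B by 1.47 ± 0.56, on all 10 arrays, although both copies were lower than in the yeast form, at -0.84 ± 0.43 and -2.31 ± 0.73. RPL14A exceeded RPL14B by 1.53 ± 1.38, with a largest gap of 5.16 at hour 1 and a median gap of 1.25 over the 10 hours.

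In RPL35, RPL40 and RPL31 copy B was on the higher side. RPL35B exceeded RPL35A on all 10 arrays, with a mean of copy A minus copy B of -1.26 ± 0.87 (limma adjusted p = 0.0041). RPL40, made as a fusion with ubiquitin, had the steadiest of these gaps, at -0.91 ± 0.24 and from -1.46 to -0.54 over the hours (limma adjusted p = 5.3e-05). RPL40A was at -0.70 ± 0.33 and RPL40B at 0.21 ± 0.47. For RPL31 the mean was -0.85 ± 0.51, with 9 of 10 arrays on the side of copy B.

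The closest copies were those of RPL23, RPL4, RPL12 and RPL36. Their mean differences were 0.01 ± 0.12, -0.01 ± 0.20, 0.02 ± 0.31 and 0.04 ± 0.11 (SD, n = 10 each). RPL4, with the lowest ratios of all members, and RPL36, close to the middle, thus had gaps of similar size. The most variable pair was RPL41, at -0.43 ± 1.59, with copy A minus copy B from -3.03 to 2.80 over the hours. That pair did not pass (limma adjusted p = 0.54). RPL33B was the only tested member with a difference between odd and even hours in limma (adjusted p = 0.023), against 6.35% of all genes. It averaged 0.25 over odd hours and -1.17 over even hours.

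Other genes of the pathway were taken from lists. Among 53 tested small subunit (RPS) genes 24 were lower and 6 higher over all hours, against 22.4% and 22.6% of all genes. Their median was -0.31. Without centring, 12 were lower and 13 higher, where 15.3% of all genes were lower and 38.8% higher. The lowest were RPS27B at -1.84 ± 0.52 (n = 9) and RPS2, a protein of the entry side for mRNA, at -1.67 ± 0.59. The highest was RPS7B at 1.03 ± 0.64. The median RPS difference of hours 3 to 10 minus hours 1 and 2 was 0.90, with 52 of 53 positive, close to the RPL values. Over all genes 2990 of 5773 were positive. All 5 stalk genes were lower on both scales, from RPP0, the base of the stalk that recruits elongation factors, at -2.99 ± 0.56 to RPP2B at -1.02 ± 0.50.

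Among 51 tested large subunit assembly factors, 19 were higher and 6 lower over all hours, and the median was 0.28 (without centring, 26 were higher and 3 lower). Of all genes, 22.6% were higher and 22.4% lower, and without centring 38.8% and 15.3%. NOC2, an export factor of the precursor particle, was at 1.43 ± 0.74, while TIF6, which keeps immature large subunits from joining small ones, was at -1.65 ± 0.65. The factors had a median difference of 0.69 between hours 3 to 10 and hours 1 and 2, with 46 of 51 positive. Over all genes 2990 of 5773 were positive. Mitochondrial large subunit genes had 8 of 32 higher and 3 lower, and the median was 0.27, with a share of higher genes close to the 22.6% of the table. Without centring 17 were higher and 1 lower, against the same 38.8% and 15.3% of all genes. Their median difference was -0.13, with 14 of 32 positive. Whether RPL genes differed from these lists as groups was not tested.

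Among 12 regulators of ribosomal protein genes 1 was higher and 1 lower, against 22.6% and 22.4% of all genes. TBF1, a DNA-binding factor, was at 0.91 ± 0.91 and KOG1, a subunit of TOR complex 1, at -1.37 ± 0.49, with limma adjusted p-values of 0.0071 and 2.6e-05. Without centring 7 were higher and 1 lower, on the scale where 38.8% of all genes were higher. RAP1, FHL1, IFH1 and SFP1 had means of 0.00 ± 0.37, 0.31 ± 0.63, 0.56 ± 1.07 and 0.20 ± 0.61, and none of these 4 passed.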

How the data were processed

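For each array the authors deposited a single log2 ratio per row of the table. The sources used here do not give the scanner, the dyes, the background correction or the normalization. Base 2 was taken from the form of the deposited values. Every value is written with 7 decimals and ends in 3, and 3324 of them (5.28%) are written as 3e-07. Values within 1e-06 of 0 were taken as missing, a choice made after the values were seen. Systematic names were matched to RefSeq R64, used for names only: 5792 matched and 500 did not.

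Arrays were centred on their median, and a gene needed 8 or more of its 10 values to be tested. In R 4.3.3, the lmFit and eBayes functions of limma 3.58.1 gave the mean over hours (with a linear and a quadratic term in hour), the difference of hours 3 to 10 minus hours 1 and 2, and the mean of copy A minus copy B. The model of the difference between hours also gave the mean of each set against 0, with the scatter within both sets as error. P-values are two-sided with Benjamini-Hochberg adjustment over all genes or all pairs, and the threshold was 0.05. The SD beside a mean is over hours and includes any trend.

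Named genes were the 6 lowest and 6 highest past the threshold, the 4 extreme differences between hours, the 6 widest and 4 closest pairs, all single-copy members, members with few values, and up to 3 genes at each end of other lists. RPL11A, RPL33B and the RPL41 pair were chosen after their values were seen. Members and lists were chosen with earlier results of these data known. Alternatives covered centring, normalization, spread, zeros, filters, odd and even hours, time model, weights, another split of hours and leaving out each hour. Code was tested on simulated data. Figures were drawn with matplotlib 3.10.9.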

Additional observations from a re-analysis of the deposited data

Results flagged for a closer look

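Among 39 described members, 2 values stood apart from the gene's other hours by Dixon's criterion for a lone extreme, which chance meets in about 1 of 20 genes. RPL14A was at 3.10 at hour 1, with its next highest value at 0.55. RPL35A was at 1.11 at hour 3, with its next highest value at -0.13.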

How the results depend on the processing

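For 46 values of single genes and pairs recomputed under the alternatives, none with a call changed sign. Other described genes were not followed singly. The count of members higher over all hours, 6, was 16 on the deposited scale and 17 with quantile normalization, where 38.8% and 39.4% of all genes were higher. It was 0 with odd hours alone and 3 with even hours alone. The count of lower members was 34, and lay between 23 and 35 in every alternative run. Without single hours it lay between 30 and 34, with 4 to 6 higher members and 8 to 12 paralog pairs that differed. The median difference of hours 3 to 10 minus hours 1 and 2, 0.94, was 1.13 with odd hours alone, 0.77 with even hours alone, 0.63 when hours 1 to 3 were set against hours 4 to 10, and between 0.86 and 1.06 without single hours. No member passed that test under any alternative. Of the recomputed values of single genes and pairs, 30 lost the call and 3 gained it, and the cause was not tested. No paired analysis was possible because there is 1 group with 1 array per hour. Spot intensities were not used here, so what signal over background limits is unknown.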
